A study of Rattus norvegicus with 28 samples.

Results

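The comparison of injured with uninjured cord at week 3 rests on 7 of the 28 RNA sequencing libraries of a series on rat neural progenitor cells. Its members were chosen by their labels: 3 libraries of cells exposed to injured spinal cord for a labelled 3 weeks, and 4 of cells exposed to spinal cord with no mention of injury, read here as uninjured. Replicate 3 of the injured week 3 group was left out because many genes that its companions express read 0 there. Replicate numbers follow the order of the deposited columns, as the labels give none. Culture libraries and those of week 4 serve below only as reference levels and as a second comparison that shares no library with week 3. All groups carry the same label of cell type, organism and RNA source. The labels give no strain, sex, age, genotype, lesion method or graft procedure, nor whether cells were separated from host tissue or came from separate animals. The p-values thus measure the spread between these libraries, which may be technical.

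Neural progenitor cells divide and can give rise to neurons, astrocytes and oligodendrocytes, and they are grafted into injured spinal cord in experimental work on repair. Injured cord is a tissue of inflammation, reactive astrocytes, scar matrix and myelin loss, whereas uninjured cord is rich in mature neurons and myelinating glia. In RNA from mixed material, a change in the share of a cell type and a change in RNA per cell cannot be told apart. The table gives rat Ensembl gene identifiers without symbols, and 0 of 32545 identifiers matched the gene table used here. Cell type markers, pathways and the labelled cell type itself were therefore not examined, and genes are described by their level, their size of change and their behaviour in other groups.

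The 3 injured libraries held 3147432, 3439251 and 3489857 counts and the 4 uninjured ones 2886760 to 6824050. Library totals did not differ beyond their spread (exact permutation p = 0.886, two-sided, over 35 arrangements, of which the smallest possible p is 0.0286). Injured libraries detected 15464 ± 153 genes (SD, n = 3) and uninjured ones 16308 ± 776 genes (SD, n = 4), or 15275 ± 164 and 15910 ± 381 genes when all were thinned to the lowest total. The thinned difference had an exact permutation p of 0.0857, or 0.129 adjusted over the 6 library measures compared. The same 2 genes took the most counts in all 7 libraries, 21.1 ± 2.65% of counts in injured (SD, n = 3) and 14.5 ± 2.83% in uninjured libraries (SD, n = 4; exact permutation p = 0.0571, adjusted 0.129). Neither of these 2 genes was called (edgeR adjusted p = 0.14 and 0.203).

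Expression profiles separated the groups far more than they separated replicates. Across 12418 genes, Spearman's rho was 0.972 to 0.974 between injured libraries and 0.945 to 0.983 between uninjured ones. Between an injured and an uninjured library it was 0.600 to 0.655. The first principal component held 88.1% of the variance, with injured libraries at -128.7 to -118.5 and uninjured ones at 86.5 to 98.1. The second component, with 5.01%, mainly set uninjured replicate 3 (-54.2) apart from the other uninjured libraries (13.1 to 22.7). The biological coefficient of variation, the spread between replicates beyond counting noise, was 17.8% within the injured and 22.2% within the uninjured group.

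Most of the genes tested in the main fit differed between injured and uninjured cord exposure. Of 12418 genes tested, 7537 (60.7%) passed an adjusted p of 0.05 and are referred to as called (edgeR quasi-likelihood fit, p-values adjusted by Benjamini-Hochberg over all genes tested). Called genes were higher in injured libraries in 3614 cases (29.1% of genes tested) and lower in 3923 (31.6%). No injured library overlapped an uninjured one in 61.5% of all genes tested, 3730 higher and 3909 lower, and 7083 of these genes were called. The changes were large on both sides and larger among the genes that fell. The median log2 fold change was 1.295 among the genes that rose and -2.01 among those that fell, against 0.010 over all genes tested. At least 2-fold changes were seen in 2342 genes that rose and 3018 that fell, and at least 4-fold changes in 1174 and 1971. At least 16-fold changes, on the fitted scale, were seen in 472 genes that rose and 774 that fell. For 94 and 31 of the called genes, given below, 1 group had no counts, and their fitted changes depend on the small count that edgeR adds.

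The slight majority of lower calls depended on the scaling. It held with RLE factors (3618 higher and 3925 lower calls) and in DESeq2 (3560 and 3914). It reversed with upper quartile factors, with 4347 higher and 3481 lower calls, and with library totals alone, with 4130 and 3577. These scalings shifted the median log2 fold change of all genes to 0.19 and 0.13. Small changes near 0 can therefore change sign with the scaling, while 7095 and 7191 of the 7537 calls kept both call and direction.

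**Figure D1:**
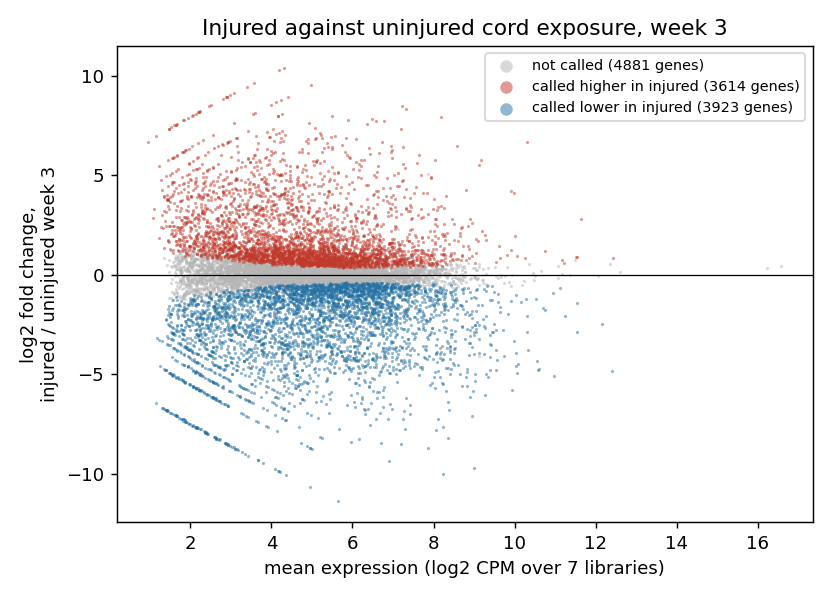
Log2 fold change of injured over uninjured week 3 libraries (vertical axis) against mean level in log2 CPM (horizontal axis) for 12418 genes, 1 point each. The 3614 genes called higher (red) and 3923 called lower (blue) spread over the whole range of levels, and the diagonal streaks at low levels are genes with few or no counts in 1 group.

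Calls were spread over weakly and strongly expressed genes alike. Genes with a mean of 1 to 3 log2 CPM were called in 60.3% of 2208 cases, those of 3 to 5 in 58.2% of 4505, those of 5 to 7 in 62.8% of 4260 and those above 7 in 62.8% of 1444. The size of the change was less even. The median absolute log2 fold change was 1.502 in the weakest of these 4 classes, where the median standard error was 0.47, and 0.77 in the strongest, where it was 0.22. With the scaling of the main fit, on which this balance depends, lower calls outnumbered higher ones in 3 of the 4 classes. From the weakest to the strongest class, there were 620 higher and 712 lower, 1446 higher and 1174 lower, 1208 higher and 1469 lower, and 339 higher and 568 lower calls.

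The genes that fell made up a large part of the RNA of the uninjured libraries. They held 45.0 ± 1.98% of the counts of tested genes in uninjured libraries (SD, n = 4) and 13.1 ± 0.424% in injured ones (SD, n = 3). The genes that rose held 33.9 ± 1.27% of counts in injured libraries (SD, n = 3) and 11.7 ± 0.386% in uninjured ones (SD, n = 4). Single uninjured libraries gave the genes that fell 42.9 to 46.8% of their counts, and single injured libraries gave them 12.6 to 13.5%. The ranges of the groups did not overlap. These genes were chosen on the same libraries, so the shares are a description and carry no test.

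**Figure D2:**
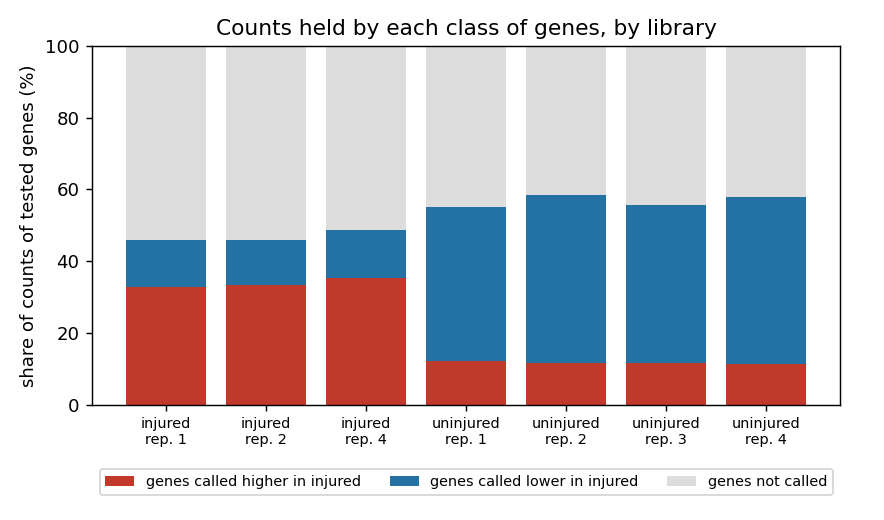
Share of the counts of tested genes (percent, vertical axis) held by genes called higher, called lower and not called, as stacked bars for each of the 7 libraries. Genes called lower hold 42.9 to 46.8% in the 4 uninjured libraries and 12.6 to 13.5% in the 3 injured ones.

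Some genes were counted in 1 condition and not at all in the other. The 3 injured libraries had 0 counts for 94 of the tested genes, whose median level in uninjured libraries was 7.76 CPM. A group's floor was taken as 3 counts summed over its libraries, which is 0.285 CPM here. The median of these genes was at least 27.2-fold lower in injured libraries, and the most extreme at least 313-fold lower. The 4 uninjured libraries had 0 counts for 31 tested genes, whose median level in injured libraries was 9.59 CPM. Against a floor of 0.192 CPM, the median of these genes was at least 50.1-fold higher in injured libraries, and the most extreme at least 235-fold higher. All 94 and all 31 were called, but such genes pass the filter on low counts only through the group where they are high. The uninjured group holds more libraries and counts, so a gene of the same low level is more easily missed in the injured group. Floors cover counting error only, since reads without molecular identifiers are not independent molecules.

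Genes without counts in 1 week 3 group were mostly detected elsewhere in the series. Of the 94 absent from injured week 3 libraries, 93 had over 3 counts in the uninjured week 4 group, 46 in culture and 45 in the injured week 4 group, and 20 also had 0 counts in all 4 injured week 4 libraries. Of the 31 absent from uninjured week 3 libraries, 29 had over 3 counts in culture, 29 in the injured week 4 group and 26 in the uninjured week 4 group. Only 2 of the 31 also had 0 counts in all 4 uninjured week 4 libraries.

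The 2 genes with the largest rise and the 2 with the largest fall, among called genes of at least 20 CPM in the higher group and no overlap of the groups, all belonged to these classes. They were chosen for these values in the same libraries, so the p-values given for them are a description. ENSRNOG00000000952 had 48.0, 47.7 and 39.3 CPM in injured replicates 1, 2 and 4, a mean of 45.0 ± 4.93 CPM (SD, n = 3), from 171, 171 and 133 counts. It had 0 counts in all 4 uninjured libraries and was at least 235-fold higher in injured ones (edgeR adjusted p = 7.35e-08). The 3 injured libraries lay close to one another and far from the uninjured ones.

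ENSRNOG00000023213 had 41.8, 51.4 and 31.6 CPM in injured replicates 1, 2 and 4, a mean of 41.6 ± 9.87 CPM (SD, n = 3). It had 0 counts in all 4 uninjured libraries and was at least 218-fold higher in injured ones (edgeR adjusted p = 1.78e-07). Replicate 4 was the lowest and replicate 2 the highest of the injured libraries, and the groups did not overlap. The left-out injured replicate 3, where many expressed genes read 0, had 0 counts for this gene and 332 for ENSRNOG00000000952. With that library included, ENSRNOG00000023213 no longer passed the filter on low counts.

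ENSRNOG00000036869 had 97.7, 70.9, 117.1 and 58.4 CPM in uninjured replicates 1 to 4, a mean of 86.0 ± 26.4 CPM (SD, n = 4). It had 0 counts in the 3 injured libraries and was at least 313-fold lower there (edgeR adjusted p = 1.09e-07). Replicate 3 was the highest and replicate 4 the lowest of the uninjured libraries, and the groups did not overlap.

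ENSRNOG00000018086 had 55.0, 64.5, 29.0 and 65.3 CPM in uninjured replicates 1 to 4, a mean of 53.4 ± 17.0 CPM (SD, n = 4). It had 0 counts in the 3 injured libraries and was at least 187-fold lower there (edgeR adjusted p = 3.82e-07). Uninjured replicate 3 was the lowest for this gene, although it was the highest for ENSRNOG00000036869. Both genes also had 0 counts in the left-out injured replicate 3, where many expressed genes read 0, so these 0 counts are uninformative.

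In culture the 2 genes that rose were both low, far from injured week 3, and the 2 that fell differed from each other. On a scale common to the 19 libraries of culture and weeks 3 and 4, ENSRNOG00000000952 had 0.686 to 2.01 CPM in culture, above uninjured week 3 and far below injured week 3 libraries (37.8 to 45.0 CPM). ENSRNOG00000023213 had 0.516 to 2.52 CPM in culture and 30.4 to 48.3 CPM in injured week 3 libraries. ENSRNOG00000036869 had 6.88 to 10.3 CPM in culture, between the 0 counts of injured and the 55.0 to 112.3 CPM of uninjured week 3 libraries. ENSRNOG00000018086 had 0 counts in all 4 culture libraries, as in injured week 3. The week 2 libraries were shallow, with 84532 to 446331 counts in the 4 injured (1221176 in all) and 189626 to 426992 in the 4 uninjured ones (1120753 in all). In them ENSRNOG00000036869 had 82 counts over the 4 injured and 61 over the 4 uninjured libraries, and ENSRNOG00000018086 had 89 and 55. ENSRNOG00000000952 had 0 counts in all 8 week 2 libraries and ENSRNOG00000023213 had 4 over the injured and 1 over the uninjured ones.

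**Figure D3:**
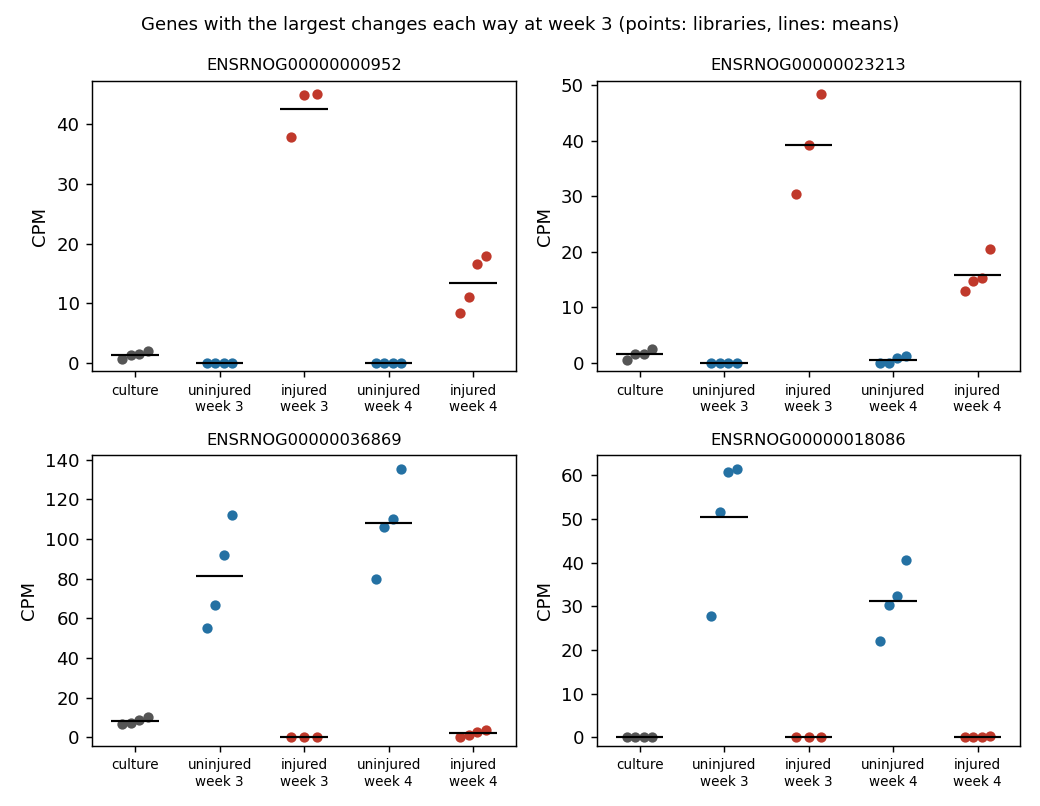
CPM (vertical axis, linear, scaled over 19 libraries) of the 4 genes in culture, uninjured and injured libraries of weeks 3 and 4, with 1 point per library, ordered by value, and a line at the group mean. Injured week 3 libraries stand at 37.8 to 45.0 CPM for ENSRNOG00000000952 and at 0 for both genes that fell, and the left-out library is not drawn.

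The gene classes of week 3 were followed through culture and week 4 as library medians on that common scale, in log2 CPM with a prior count of 2. Genes that rose had a median of 5.20 to 5.24 in injured and 3.54 to 3.74 in uninjured week 3 libraries. Their medians were 4.98 to 5.01 in culture, 4.59 to 4.72 in injured week 4 and 3.82 to 4.04 in uninjured week 4 libraries. Culture was thus close to, but below, injured week 3 for this class, and both week 4 groups lay between the week 3 groups. Choosing the class on week 3 values favours such a place between the week 3 groups. Genes that fell had a median of 3.38 to 3.49 in injured and 5.40 to 5.51 in uninjured week 3 libraries. Their medians were 3.71 to 3.80 in culture, 4.57 to 4.75 in injured week 4 and 5.19 to 5.40 in uninjured week 4 libraries.

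The most changed genes followed a like order by class median, with culture next in rank to injured week 3. Single genes can depart from it, as the 2 named genes that rose did in culture. The 472 genes at least 16-fold higher had a median of 4.87 to 4.99 in injured week 3, 4.03 to 4.26 in culture, 3.24 to 3.81 in injured week 4, 0.51 to 2.04 in uninjured week 4 and -0.38 to 0.42 in uninjured week 3 libraries. The 774 genes at least 16-fold lower had a median of -0.0036 to 0.34 in injured week 3, 0.65 to 0.80 in culture, 1.65 to 2.40 in injured week 4, 4.21 to 4.64 in uninjured week 4 and 4.48 to 4.90 in uninjured week 3 libraries. Genes not called at week 3 had medians of 4.49 to 4.69 in all 19 libraries. The week 3 values were used to choose these classes and the culture and week 4 values were not, and no test was made of their order. The choice pushes the week 3 groups apart, so that other groups are favoured to lie between them.

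**Figure D4:**
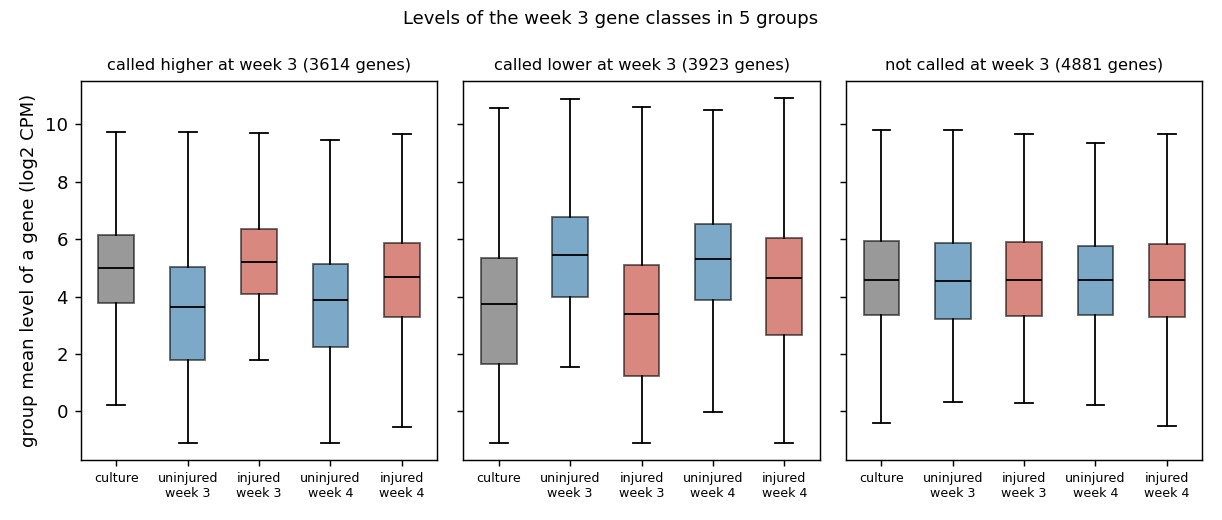
Box plots of the group mean level of each gene (log2 CPM, vertical axis) in 5 groups, for genes called higher, called lower and not called at week 3 (box: quartiles, line: median, whiskers: up to 1.5 box heights). The culture box lies near the injured week 3 box for both called classes.

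The injury comparison of week 4, with 4 libraries a group and none shared, served as a second comparison at another time point, not as a repeat. Fitted alone, it called 2286 genes higher (18.9%) and 2617 lower (21.6%) of 12117 tested. Of the genes called higher at week 3 and tested at week 4, 1607 of 3344 (48.1%) were called higher again. This is 71.5% of the 2247 called higher at week 4 that were tested at week 3. Of the genes called lower at week 3 and tested at week 4, 1860 of 3762 (49.4%) were called lower again. This is 73.7% of the 2524 called lower at week 4 that were tested at week 3. Calls in opposite directions were made for 84 and 177 genes.

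Among genes that rose and passed the week 4 filter on low counts, those with larger week 3 changes kept their direction more often. That filter kept 359 of the 472 genes that rose at least 16-fold, 589 of the 702 that rose 4- to 16-fold, 698 of the 774 that fell at least 16-fold and 1135 of the 1197 that fell 4- to 16-fold. Over all genes tested at both weeks, the median week 4 log2 fold change was -0.016. A positive week 4 change was seen in 79.5% of the 1271 tested genes that rose by less than 2-fold. The share was 81.7% of 1125 at 2- to 4-fold, 92.5% of 589 at 4- to 16-fold and 99.4% of 359 at 16-fold or more. For tested genes that fell the shares were 73.1% of 905 below 2-fold, 80.2% of 1024 at 2- to 4-fold, 76.3% of 1135 at 4- to 16-fold and 96.7% of 698 at 16-fold or more. The week 4 changes were smaller. Tested genes that rose 4- to 16-fold had a median log2 fold change of 2.81 at week 3 and 1.42 at week 4, and genes that fell 4- to 16-fold had -2.84 and -0.70. Choosing genes on week 3 values enlarges their week 3 changes, so these medians do not test whether the weeks differ.

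The difference between weeks was tested directly in 1 fit of the 15 libraries. The injury effect differed between weeks 3 and 4 for 4036 of 13129 genes (30.7%; edgeR adjusted p under 0.05). Of these, 2184 (54.1%) had fitted changes of the same sign at both weeks and larger at week 3. In injured libraries 898 of them were higher and 1286 lower. Sign and size are those of the fitted changes, whether or not the change of either week was called. Only 270 (6.69%) had fitted changes of the same sign and larger at week 4. The other 1582 (39.2%) had opposite signs at the 2 weeks, of which 309 were called at both weeks in this fit. When all 27 libraries entered the fit, 2674 genes were called.

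**Figure D5:**
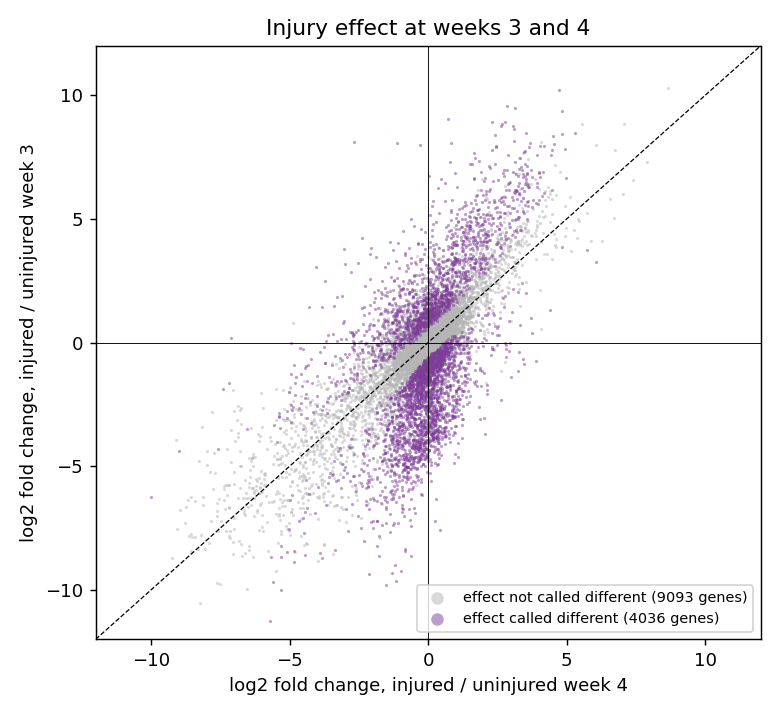
Log2 fold change of injured over uninjured libraries at week 3 (vertical axis) against week 4 (horizontal axis) for 13129 genes, 1 point each, with the line of equal effects dashed. The 4036 genes whose effect was called different are in purple, and 2184 of them lie on the same side of 0 at both weeks and farther from 0 at week 3.

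Among the 4 genes with the largest week 3 changes, the direction was the same at week 4. ENSRNOG00000000952 had 8.39 to 17.9 CPM in injured week 4 and 0 counts in uninjured week 4 libraries, and ENSRNOG00000023213 had 13.0 to 20.6 and 0 to 1.31 CPM. ENSRNOG00000036869 had 0 to 3.63 CPM in injured and 80.1 to 135.4 CPM in uninjured week 4 libraries. ENSRNOG00000018086 had 1 count over the injured and 449 over the uninjured week 4 libraries. The injury effect was called different between weeks for ENSRNOG00000023213 (edgeR adjusted p = 0.00558) and ENSRNOG00000036869 (edgeR adjusted p = 0.012), both larger at week 3. Both genes were chosen for their week 3 changes, which favours a larger effect at week 3. These p-values are therefore no test of whether the weeks differ for them. For ENSRNOG00000018086 a difference was not detected (edgeR adjusted p = 0.397). For ENSRNOG00000000952 both uninjured groups had 0 counts, so that no difference of effects can be estimated.

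The left-out library bears on all week 3 counts. Injured replicate 3 held 3614226 counts but detected only 11544 genes. Of 9550 genes with at least 20 counts in each of the other 3 injured libraries, 2734 (28.6%) read 0 in it. The same check, made for each of the other 3 injured libraries against the rest of the group, found 0 such genes among 6895 to 7050. There the rest of the group included replicate 3, so genes that read 0 in replicate 3 were not examined. Its Spearman correlations were 0.488 to 0.500 with injured and 0.279 to 0.305 with uninjured libraries. With it included, the biological coefficient of variation was 60.2% against 21.7%, and 5393 of 12008 genes were called, 2442 higher and 2951 lower. Of these, 5305 were among the 7537 called without it, all in the same direction.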

How the data were processed

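RNA was extracted with Trizol and on-column DNase and made into stranded total RNA libraries for very small inputs, per the labels' protocols. The authors deposited raw counts per gene, 1 column per library. Per the submitters' processing notes, which name no role or order, the tools included featureCounts 1.5.1, StringTie 1.3.3, the aligner STAR 2.5.1, Picard, Trim Galore 0.4.1 and FastQC 0.11.5. These notes name a mouse build, GRCm38, while the identifiers are rat. How strand was treated in counting is not stated in the labels, so counts of overlapping genes are uncertain. Counts of close paralogs are uncertain as well.

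The 7 libraries were fitted alone in R 4.3.3 by the robust quasi-likelihood test of edgeR 4.0.16, after filterByExpr and with TMM factors and 5 residual degrees of freedom,, with Benjamini-Hochberg adjustment over the 12418 genes tested. Weeks 3 and 4 were compared by an interaction term. CPM values use TMM-scaled totals. The fit was tested on simulated data in which few genes changed and rises matched falls in number and size. That simulation does not cover scaling when most genes change. None of the 9 within-group pairs of libraries held identical counts, and each pair differed beyond sampling noise (chi-square over degrees of freedom from 2.80 to 27.8). Uninjured replicates 2 and 4 gave the 2.80, and the next closest pair, injured replicates 1 and 2, gave 8.14. These ratios do not tell technical from biological replicates.

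Members, lists and rules were chosen with earlier results of these data known. With no symbols, the 54 gene lists and the rules for their genes were not run. The rule for single genes took the largest changes each way among called genes of at least 20 CPM without overlap, and 2 identifiers each way are printed. Alternatives were other scalings, filters, DESeq2 1.42.0, limma 3.58.1, other sets of libraries, a fold threshold of 1.5 and leaving out each library. The week 2 libraries entered the fit of 27 libraries and were otherwise used for raw counts of the named genes, with no test.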

Additional observations from a re-analysis of the deposited data

Results flagged for a closer look

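The injury effect differed between weeks 3 and 4 for 4036 genes by a test of the difference itself. Among the genes with the largest week 3 changes, the fitted difference of log2 effects, week 3 minus week 4, was 5.46 for ENSRNOG00000023213 and -5.55 for ENSRNOG00000036869. Each has 0 counts in 1 week 3 group, so these 2 sizes depend on the small count that edgeR adds and are no measure of the true difference. Both genes were chosen for their week 3 changes, which favours a larger effect at that week. Uninjured week 3 replicate 1 lay apart from its group in total counts, with 6824050 against 2886760 to 3522226 in the others and a gap of 0.839 of the group's range. Leaving it out gave 6871 calls in place of 7537. For ENSRNOG00000018086 the injured week 4 group was set apart by 1 library with 1 count while the other 3 had 0, which fixes the ratio at 1. Of 22 groups of 4 values examined in this way, chance flags about 1 in 20.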

How the results depend on the processing

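Of the 19 alternatives of the week 3 fit, all 19 gave 5393 to 8493 calls, within 1.5 times the 7537 reported. The lowest came with the left-out library and the highest without a filter on low counts. The number of genes tested also varied, and called genes were not always the majority. They were 5393 of 12008 with the left-out library and 8493 of 20484 without that filter. In the fit of 27 libraries they were 6570 of 14282, and against a fold change of 1.5 they were 5437 of 12418. The number of lower calls stayed within 1.5 times in all 19 and that of higher calls in 18. A test against a fold change of 1.5 gave 2399 higher calls, a stricter question by construction. Leaving out each of the 7 libraries in turn gave 6746 to 7975 calls, 3195 to 3867 higher and 3551 to 4108 lower, the most without uninjured replicate 3. The number of genes whose effect differed between weeks was 3492 to 4352 when each of 15 libraries was left out, and 2674 in a fit of 27 libraries. The cause was not tested. The 4 named genes kept direction and call in all 75 alternatives that tested them. They were chosen for the largest changes in these same libraries, so this outcome was favoured by the choice and is no separate support. Thinning to the lowest total (7373 calls) and removing the 20 genes with the most counts (7485 calls) were chosen after the data were seen. For want of gene names, leaving out mitochondrial and ribosomal RNA genes was not run, nor were counts of list members. No paired analysis was possible because the labels give no replicate numbers.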
